A study of Homo sapiens with 6 samples.

Results

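The mRNA levels of 10 genes that drive the cell cycle, 6 cyclins and the 4 cyclin-dependent kinases (CDKs) they bind, were compared between STIL-knockdown and control EJ cells. The genes were CCNA2, CCNB1, CCNB2, CCND1, CCNE1, CCNE2, CDK1, CDK2, CDK4 and CDK6. They were found by their symbols in the deposited expression tables, where all 10 were present among 15953 genes. EJ is an established human bladder cancer cell line, and STIL is a protein needed for centriole duplication. The control group was labelled shNC, a negative-control short hairpin, and the knockdown group shSTIL, a short hairpin against STIL, with 3 libraries in each. The study made these lines by stable lentiviral transduction, whereas the column headings and the design text use "si" in the names of the same groups. The hairpin sequence used for these libraries, and whether a line was 1 clone, are not given in the sources used here. No further allele or agent is named for either group, and total RNA of the bulk cell population was sequenced.

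Cyclins carry no enzyme activity themselves but bind and activate CDKs, whose protein levels vary less through the cycle than those of the cyclins. D-type cyclins with CDK4 or CDK6 start the phosphorylation of RB in G1 phase, E-type cyclins with CDK2 complete it and release the E2F factors at entry into S phase, cyclin A2 binds CDK2 in S phase and CDK1 in G2 phase, and B-type cyclins with CDK1 drive mitosis. Cyclin genes of the later phases are transcribed in a cell cycle-dependent manner, whereas CCND1 answers mainly to growth signals, and several of these genes are amplified or overexpressed in bladder cancer.

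The libraries held between 16214772 and 16901634 reads assigned to genes, recovered from the deposited log2 CPM values (the reads of a gene scaled to the size of its library, on a log2 scale). STIL had a log2 CPM of 5.98, 6.10 and 6.01 in the shNC libraries and 4.05, 4.06 and 4.01 in the shSTIL libraries, or 25.2% of the control level on that scale. Among epithelial and urothelial markers, KRT18, KRT8 and KRT7 were abundant, KRT5, CDH1, UPK1A, UPK2, GATA3 and EPCAM had at most 33 reads in any library, and KRT19 and UPK3A were not analysed here. Their summed level was 1080 to 1130 CPM in shNC and 970 to 1000 CPM in shSTIL, and of the 9 measured KRT8 was called lower and KRT7 higher. Markers of other cell types summed to 17.3 to 21.3 CPM in shNC and 21.2 to 23.7 CPM in shSTIL over the 6 measured, of which COL1A1 was called lower and ACTA2 higher, while PECAM1, VWF and DES had at most 7 reads in any library and PTPRC, CD3E and COL3A1 were not analysed here. The part of either shift in the results was not tested.

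Differentially expressed genes (DEGs) were called with limma, a linear model fitted to all 15953 genes at once, at a Benjamini-Hochberg adjusted p under 0.01. All 10 cyclin and CDK genes passed, against 47.1% of all genes. Each of the 10 had a mean log2 CPM of at least 1. When only the 11319 genes at that level were fitted, 7448 were called. The shares of all genes given here and below include genes of few reads, and shares by direction or by overlap were not computed at that level. Of the 10, 8 were lower in shSTIL, against 23.6% of all genes, and 2 were higher, against 23.5%. The 3 shSTIL values lay wholly outside the range of the 3 shNC values for all 10, against 60.3% of all genes. The median log2 fold change of the 10 was -0.72, beside 0.0052 over all genes. CCNE2, CCNE1, CCNA2, CDK2, CCNB2, CCNB1, CDK1 and CDK4 were lower, in this order of size, and CDK6 and CCND1 were higher. Because bulk RNA was measured, fewer cells in a given phase and less RNA per cell cannot be told apart. The labels do not say whether the 3 libraries of a group came from separate cultures, so the p-values measure the spread between these libraries, which may be technical. An exact two-sided permutation test of 3 against 3 libraries gave p = 0.1 for each of the 10 genes, the smallest value it allows.

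**Figure D1:**
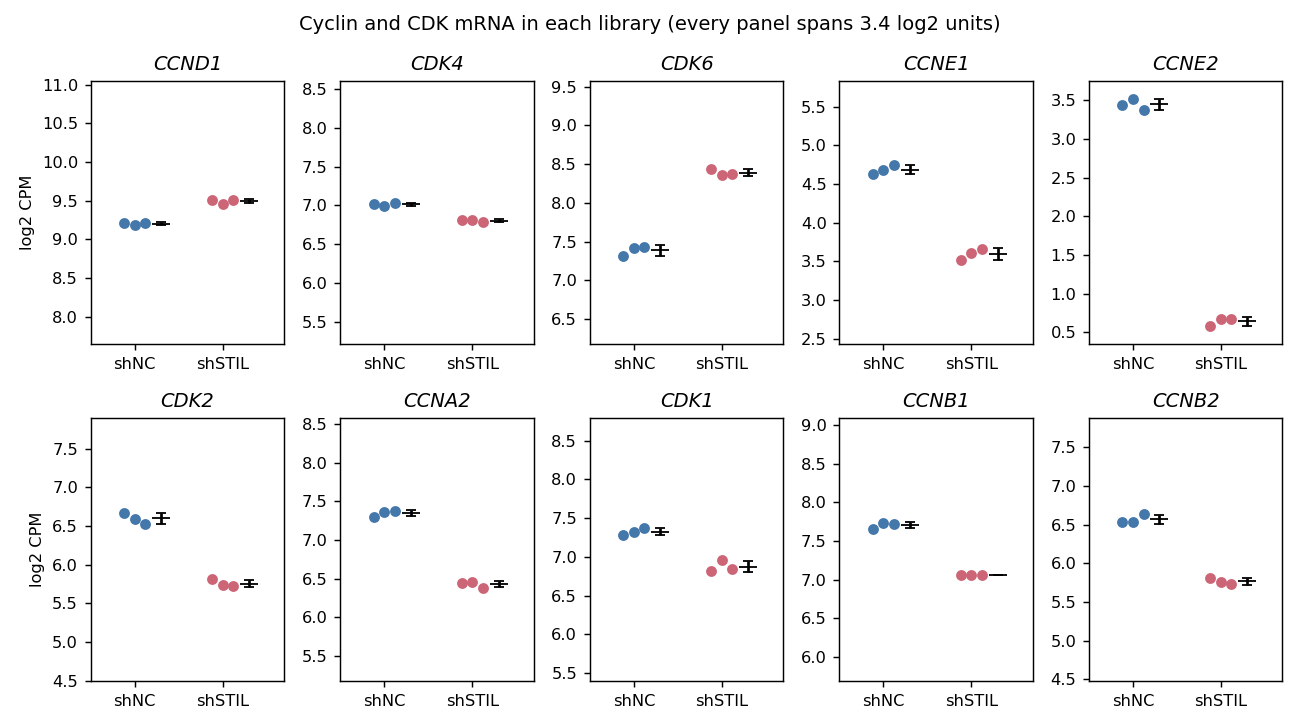
Log2 CPM (vertical axis) of the 10 cyclin and CDK genes in each of the 3 shNC and 3 shSTIL libraries, with 1 point per library and the group mean ± SD beside the points. Each panel spans the same number of log2 units. In every gene the shSTIL points are separated from the shNC points, above them in CCND1 and CDK6 and below them in the other 8, and the gap is widest in CCNE2 at 2.70 log2 units.

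The E-type cyclins fell most. CCNE2 (cyclin E2) had a log2 CPM of 3.44, 3.52 and 3.38 in shNC and of 0.58, 0.67 and 0.67 in shSTIL, so that the lowest control library stood 2.70 log2 units above the highest knockdown library. In reads this was 163 to 185 per control library and 23 to 25 per knockdown library, all well above 0. Its log2 fold change was -2.80 (SE 0.139, adjusted p = 1.7e-09, limma), a 6.99-fold fall and the fall ranked 6 among all 15953 genes. On the scale of log2 CPM with a prior count of 2, this value slightly understates the change of a low gene, and DESeq2 on the recovered reads gave -2.92. CCNE1 (cyclin E1), its paralog with the same kinase partner, is encoded at chr19:29811898-29824308 on the plus strand of GRCh38. It had log2 CPM values of 4.63, 4.69 and 4.74 in shNC and 3.52, 3.60 and 3.66 in shSTIL. All 3 knockdown libraries were thus lower by 0.97 log2 units or more, and the log2 fold change was -1.09 (SE 0.071, adjusted p = 2.4e-08, limma), which left 46.9% of the control level.

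The 2 E-type cyclins did not move in proportion. The log2 ratio of CCNE1 to CCNE2 was 1.19, 1.17 and 1.37 in shNC and 2.94, 2.93 and 2.99 in shSTIL, a change of 1.71 (SE 0.065). Counted per length of transcript, CCNE2 made up 20.5% ± 1.21 (SD, n = 3) of the summed E-cyclin level in shNC and 6.87% ± 0.13 (SD, n = 3) in shSTIL. The summed level itself went from 15.8 ± 0.425 to 6.29 ± 0.313 RPKM (SD, n = 3), the CPM per kilobase of transcript. Thus CCNE1 was the more abundant E cyclin in both groups, and the remaining E-cyclin mRNA in shSTIL was nearly all CCNE1.

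CDK2, the kinase that E-type and A-type cyclins activate (chr12:55966769-55972784, plus strand), was lower as well. Its log2 CPM was 6.67, 6.60 and 6.53 in shNC and 5.81, 5.73 and 5.73 in shSTIL. The groups did not overlap, and the log2 fold change of -0.84 (SE 0.045, adjusted p = 3.4e-09, limma) corresponds to 55.8% of the control level. CCNE2 fell beyond its kinase, with a log2 ratio of CCNE2 to CDK2 of -3.23, -3.08 and -3.15 in shNC against -5.24, -5.06 and -5.05 in shSTIL. The ratio of CCNE1 to CDK2 moved far less, by -0.25 (SE 0.10), from -2.04, -1.91 and -1.79 to -2.29, -2.13 and -2.06. The nearest libraries of the groups, at -2.04 and -2.06, almost met in that ratio.

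CCNA2 encodes cyclin A2, which works in S and G2 phase (chr4:121816444-121823933, minus strand). It had log2 CPM values of 7.30, 7.36 and 7.38 in shNC and 6.45, 6.45 and 6.38 in shSTIL. Every knockdown library lay at least 0.85 log2 units under every control library. The log2 fold change was -0.92 (SE 0.036, adjusted p = 2.1e-10, limma), leaving 52.8% of the control level. The log2 ratio of CCNA2 to CDK2 was 0.63, 0.77 and 0.85 in shNC and 0.63, 0.72 and 0.65 in shSTIL, a change of -0.08 (SE 0.069) with overlapping groups (p = 0.4, exact two-sided permutation test). This small change was -0.14 without shNC replicate 1 and -0.03 without shNC replicate 3. Against CDK1, its other kinase, CCNA2 did shift, from log2 ratios of 0.02, 0.04 and 0.01 to -0.38, -0.50 and -0.46, a change of -0.47 (SE 0.039).

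Both B-type cyclins, which bind CDK1 for entry into mitosis, were lower. CCNB1 (cyclin B1, chr5:69167010-69178245, plus strand) had log2 CPM values of 7.66, 7.73 and 7.72 in shNC and 7.06, 7.06 and 7.05 in shSTIL. The knockdown libraries were nearly identical (SD 0.00434), and the log2 fold change was -0.64 (SE 0.032, adjusted p = 1.8e-09, limma). For CCNB2 (cyclin B2, chr15:59105078-59125045, plus strand), the values were 6.54, 6.54 and 6.63 in shNC and 5.81, 5.76 and 5.73 in shSTIL, with a log2 fold change of -0.80 (SE 0.042, adjusted p = 2.7e-09, limma). CCNB1 thus remained at 64.1% and CCNB2 at 57.4% of the control level. The log2 ratio of CCNB1 to CCNB2 was 1.12, 1.19 and 1.09 in shNC and 1.25, 1.30 and 1.32 in shSTIL, a change of 0.16 (SE 0.038). CCNB2 accordingly made up 38.9% ± 0.899 of the summed B-cyclin level per length in shNC and 36.2% ± 0.609 in shSTIL (SD, n = 3).

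CDK1, the mitotic kinase (chr10:60778331-60794852, plus strand), had log2 CPM values of 7.29, 7.32 and 7.37 in shNC and 6.82, 6.96 and 6.84 in shSTIL. Its shSTIL replicate 2 was the highest knockdown library and still lay 0.33 log2 units under the lowest control library. The log2 fold change was -0.45 (SE 0.041, adjusted p = 5.9e-07, limma), or 73.1% of the control level. CDK1 fell less than each of its 3 cyclins. The log2 ratio to CDK1 changed by -0.19 (SE 0.046) for CCNB1, by -0.35 (SE 0.056) for CCNB2 and by -0.47 for CCNA2, with no overlap between the groups in any of them. It also fell less than CDK2, and the log2 ratio of CDK1 to CDK2 went from 0.61, 0.72 and 0.84 in shNC to 1.01, 1.22 and 1.11 in shSTIL.

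To place the mitotic genes beside their promoters, the stretch of 130 bases before the RefSeq start of each was read from GRCh38.p14, with CDK6 shown as the member that rose most. Capitals mark the CCAAT box, the word bound by NF-Y, which reads as ATTGG where it lies on the opposite strand. They also mark the word TTTGAA or its variant form TTTAAA, found in the cell cycle elements that the MuvB complex binds, of which the first reads as TTCAAA in reverse.
CCNA2 (chr4:121823884-121824013, minus strand): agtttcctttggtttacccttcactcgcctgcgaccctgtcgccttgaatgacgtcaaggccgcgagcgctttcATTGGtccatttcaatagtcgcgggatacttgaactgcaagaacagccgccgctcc
CCNB1 (chr5:69167020-69167149, plus strand): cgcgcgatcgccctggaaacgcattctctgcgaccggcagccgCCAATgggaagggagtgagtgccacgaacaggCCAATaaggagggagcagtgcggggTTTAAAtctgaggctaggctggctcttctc
CCNB2 (chr15:59105016-59105145, plus strand): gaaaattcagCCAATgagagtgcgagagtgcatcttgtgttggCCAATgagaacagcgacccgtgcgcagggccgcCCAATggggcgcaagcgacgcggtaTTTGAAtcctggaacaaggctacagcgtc
CDK1 (chr10:60778348-60778477, plus strand): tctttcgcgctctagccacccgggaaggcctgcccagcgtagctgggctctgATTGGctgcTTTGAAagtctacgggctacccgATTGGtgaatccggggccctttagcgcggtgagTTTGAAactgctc
CDK6 (chr7:92833960-92834089, minus strand): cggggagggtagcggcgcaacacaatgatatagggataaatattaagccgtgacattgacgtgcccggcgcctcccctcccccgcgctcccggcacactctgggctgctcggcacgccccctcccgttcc

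A RefSeq promoter window, from 250 bases before to 50 bases after the start, matched 7 of the 10 genes by symbol, and the words were searched in it on both strands. No window matched CCND1, CCNE2 or CDK2. For CDK1 and CDK6, which had 2 windows each, only the window nearest the start of the principal GENCODE transcript was searched. In CCNB1 the CCAAT boxes began 87 and 55 bases before the start, 32 bases apart, with TTTAAA 30 bases before it. CCNB2 held boxes at 120, 87 and 54 bases before the start, 33 bases apart each, a further one at 244, TTTGAA at 29 and TTTAAA at 193. CDK1 held its pair at 78 and 46 bases before the start, 32 bases apart, with TTTGAA at 69 and 13 and TTCAAA 10 bases after the start. A pair on one strand with starts 31 to 33 bases apart occurred in these 3 of the 7 genes and in 0.849% of the 35116 windows of all genes. The range of 31 to 33 bases spans the gaps seen in these 3 genes, so this share is given for scale and tests nothing. The CCNA2 window held a single CCAAT box, 56 bases before the start, and no TTTGAA or TTTAAA. Other forms of the MuvB-bound element were not searched, so the CCNA2 window may still hold one. CCNE1 held TTTAAA 28 bases before the start and no CCAAT, and neither word lay in the CDK4 or CDK6 window. Of all windows, 34.6% held CCAAT, 24.0% held TTTGAA or TTTAAA and 9.27% held both. These matches describe letters in the windows and no binding was measured.

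**Figure D2:**
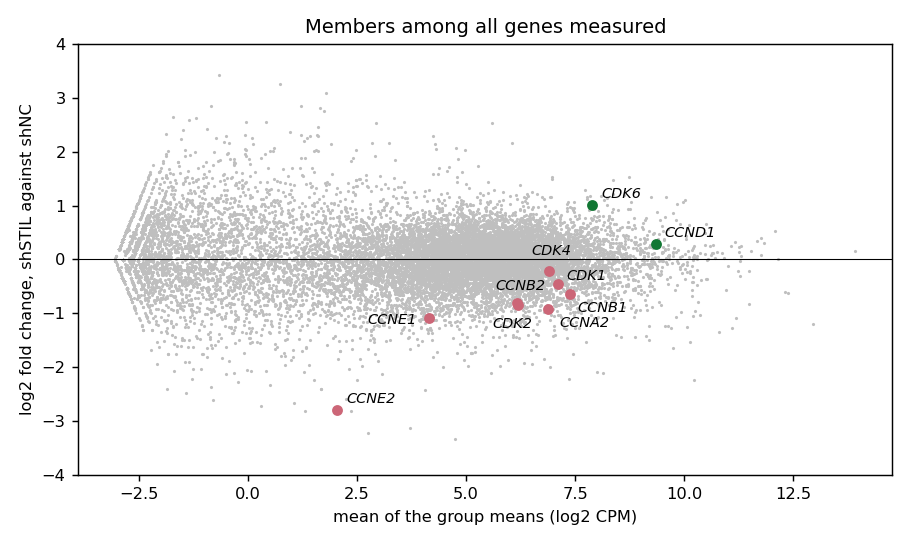
Log2 fold change of shSTIL against shNC (vertical axis) against the mean log2 CPM of both groups (horizontal axis) for all 15953 genes as grey points, with the 10 cyclin and CDK genes in red where lower and green where higher. CCNE2 lies at the lower edge of the cloud at -2.80 and CDK6 lies highest of the 10 at 1.00, while CDK4 at -0.21 and CCND1 at 0.29 lie nearest to 0.

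CCND1 encodes cyclin D1, the D-type partner of CDK4 and CDK6 (chr11:69641087-69654474, plus strand), and was the most abundant of the 10 genes. Its log2 CPM was 9.21, 9.18 and 9.22 in shNC and 9.51, 9.46 and 9.50 in shSTIL. Every knockdown library was higher than every control library by at least 0.25 log2 units. The log2 fold change was 0.29 (SE 0.030, adjusted p = 2.0e-06, limma), a 1.22-fold rise that was larger in size than the change of 48.8% of all genes.

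CDK6 and CDK4, the kinases that cyclin D1 activates, went in opposite directions. CDK6 (chr7:92604921-92836594, minus strand) had log2 CPM values of 7.31, 7.42 and 7.43 in shNC and 8.44, 8.36 and 8.37 in shSTIL. Its libraries thus held 2541 to 2789 reads in shNC and 5603 to 5934 in shSTIL, and the log2 fold change was 1.00 (SE 0.038, adjusted p = 1.5e-10, limma), a 2.01-fold rise ranked 512 among the rises of all genes. CDK4 (chr12:57747727-57756013, minus strand) had log2 CPM values of 7.02, 6.99 and 7.03 in shNC and 6.81, 6.82 and 6.78 in shSTIL. The gap between its groups was 0.18 log2 units, the narrowest of the 10. The log2 fold change of CDK4 was -0.21 (SE 0.032, adjusted p = 6.8e-05, limma), or 86.2% of the control level.

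The balance of the D-cyclin kinases therefore changed. The log2 ratio of CDK4 to CDK6 was -0.29, -0.43 and -0.40 in shNC and -1.63, -1.55 and -1.58 in shSTIL, a change of -1.22 (SE 0.049). Per length of transcript, CDK6 made up 18.8% ± 0.77 of the summed level of the pair in shNC and 35.0% ± 0.679 in shSTIL, while the sum went from 76.7 ± 0.939 to 82.6 ± 1.17 RPKM (SD, n = 3). CDK4 remained the more abundant of the pair on that scale, which rests on the length of 1 transcript per gene. CCND1 rose relative to CDK4, with log2 ratios of 2.19, 2.19 and 2.18 in shNC and 2.70, 2.64 and 2.72 in shSTIL. Relative to CDK6 it was lower, with log2 ratios of 1.90, 1.76 and 1.79 in shNC and 1.07, 1.10 and 1.14 in shSTIL.

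Across the 12 pairs compared, each a pair of paralogs or related kinases or a cyclin with a kinase it binds, the groups did not overlap in 11. For single genes the groups did not overlap in 60.3% of all genes, and no such share was computed over all pairs of genes. Each of these 11 had p = 0.1 by the exact two-sided permutation test, or 0.109 adjusted over the 12 pairs by the Benjamini-Hochberg method, and this test cannot go below 0.1 with 3 against 3 libraries. CCNA2 to CDK2 was the exception named above. The changes ranged from -1.96 (SE 0.073) for CCNE2 to CDK2 up to 1.71 for CCNE1 to CCNE2.

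**Figure D3:**
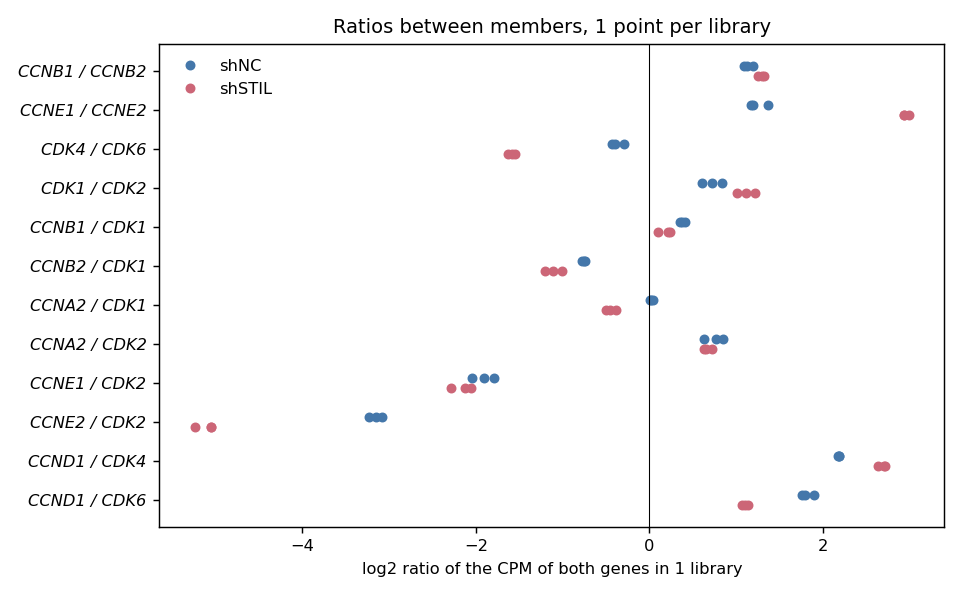
Log2 ratio of the 2 genes of each of the 12 pairs (difference of their log2 CPM) in the 3 shNC and 3 shSTIL libraries, with 1 point per library. The groups are farthest apart in CCNE2 to CDK2 and in CCNE1 to CCNE2 and overlap in CCNA2 to CDK2.

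Levels were compared between genes per length of transcript, as RPKM computed from the recovered reads and the length of the principal GENCODE transcript. CCND1 was highest, at 137 ± 1.58 RPKM in shNC and 167 ± 3.06 in shSTIL (SD, n = 3). In shNC it was followed by CCNB1 at 95.9 ± 2.5, CDK1 at 83.8 ± 2.51, CDK4 at 62.3 ± 0.83, CCNB2 at 61.0 ± 2.33, CCNA2 at 58.2 ± 1.6, CDK2 at 42.2 ± 2.09, CDK6 at 14.4 ± 0.657, CCNE1 at 12.6 ± 0.479 and CCNE2 at 3.24 ± 0.158. The only neighbours whose libraries overlapped in this order were CDK4 and CCNB2. In shSTIL the order after CCND1 was CCNB1 at 61.4 ± 0.185, CDK1 at 61.3 ± 3.21, CDK4 at 53.7 ± 0.656, CCNB2 at 34.9 ± 1.01, CCNA2 at 30.7 ± 0.87, CDK6 at 28.9 ± 0.861, CDK2 at 23.5 ± 0.789, CCNE1 at 5.86 ± 0.296 and CCNE2 at 0.432 ± 0.0175. Here the libraries of CCNB1 and CDK1 overlapped, as did those of CCNA2 and CDK6. CDK6 thus changed place with CDK2, and the order of the means was otherwise the same. CDK6 stood low on this scale although its log2 CPM exceeded that of CDK4, since its principal transcript has 11612 bases and that of CDK4 has 2076. Which transcripts the EJ cells used was not examined, and the SDs cover only the spread between libraries, not an error in length.

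The summed level of the 4 kinases per length was 203 ± 1.54 RPKM in shNC and 167 ± 3.28 in shSTIL (SD, n = 3). CDK1 made up 41.3% ± 0.985 of it in shNC and 36.6% ± 1.37 in shSTIL. CDK2 went from 20.8% ± 1.15 to 14.1% ± 0.527. The share of CDK6 went from 7.1% ± 0.306 to 17.3% ± 0.628, and that of CDK4 was 30.7% ± 0.266 in shNC and 32.1% ± 0.265 in shSTIL. Estimated reads shared with similar transcripts were present in CCNA2, CCNE2 and CDK4, whose reads were fractional in 6 of 6 libraries, so values of these genes rest in part on how RSEM divided reads. The other 7 genes held whole reads in every library.

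The rest of the cyclin and CDK network, 95 genes in 7 lists, had 35 genes called lower, 26 called higher and 34 not called, with a median log2 fold change of -0.00. Of all genes measured, 23.6% were lower and 23.5% were higher. Of the 19 other cyclins, 7 were lower and 6 were higher, with a median of 0.04. CCNF, a cyclin that works as the F-box subunit of a ubiquitin ligase rather than as a CDK activator, had a mean log2 CPM of 5.99 in shNC and 5.08 in shSTIL (log2 fold change -0.91, SE 0.045, adjusted p = 1.8e-09, limma). CCNG2, an atypical cyclin linked to growth arrest, was also lower (-0.57, SE 0.059). The remaining D-type cyclins were not called. For CCND3 the difference was -0.18 on the log2 scale (adjusted p = 0.023, limma), and it was called lower by edgeR and without shNC replicate 2, at -0.26. CCND2 had at most 5 reads in any library. Among the 17 other CDKs 2 were lower and 7 were higher, against the same 23.6% and 23.5% of all genes, with a median of 0.09. CDK17, a kinase of the PCTAIRE group, rose from a mean log2 CPM of 6.20 to 7.72 (log2 fold change 1.53, SE 0.042, adjusted p = 9.6e-12, limma), and CDK13, which with cyclin K phosphorylates RNA polymerase II, by 0.71 (SE 0.058). With 1 library left out, the lower other cyclins numbered 4 without shSTIL replicate 1 or 3, and the higher ones 3 without shSTIL replicate 2 or 3. The lower other CDKs then numbered 1 without shSTIL replicate 1 or 3, and the higher ones 4 without any 1 of the shNC libraries or without shSTIL replicate 2 or 3.

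Of 10 activators and phosphatases that act on CDKs, 5 were lower, 0 were higher and 5 were not called, with a median log2 fold change of -0.16. Over all genes 23.6% were lower, 23.5% were higher and 47.1% were called in either direction. The 3 CDC25 phosphatases, which remove the inhibitory phosphates from CDKs, were all lower, CDC25A by -0.39 (SE 0.074), CDC25B by -0.21 (SE 0.030) and CDC25C by -0.40 (SE 0.057). The call of CDC25C was lost without shSTIL replicate 2, at an adjusted p of 0.01 (limma). Of the opposing kinases, PKMYT1, which phosphorylates CDK1 at inhibitory sites, fell from a mean log2 CPM of 5.84 to 5.05 (log2 fold change -0.79, SE 0.063), whereas WEE1 was not called at 0.08 (SE 0.049, adjusted p = 0.19, limma). CDC37, the co-chaperone that loads CDK4 and other kinases onto HSP90, fell by 0.50 on the log2 scale (SE 0.045). The CDK-binding subunits CKS1B, with 0.09 (SE 0.045), and CKS2, with -0.11 (SE 0.056), were not called, and CKS2 was called lower without shNC replicate 1 at -0.17. Of the 8 CDK inhibitors, 3 were lower and 3 were higher, with a median of -0.01. CDKN2C and CDKN2B, INK4 inhibitors of CDK4 and CDK6, moved in opposite directions, by -1.16 (SE 0.059) and 0.96 (SE 0.117). CDKN1A (p21) rose by 0.22 (SE 0.030) and CDKN1B (p27) by 0.30 (SE 0.042).

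**Figure D4:**
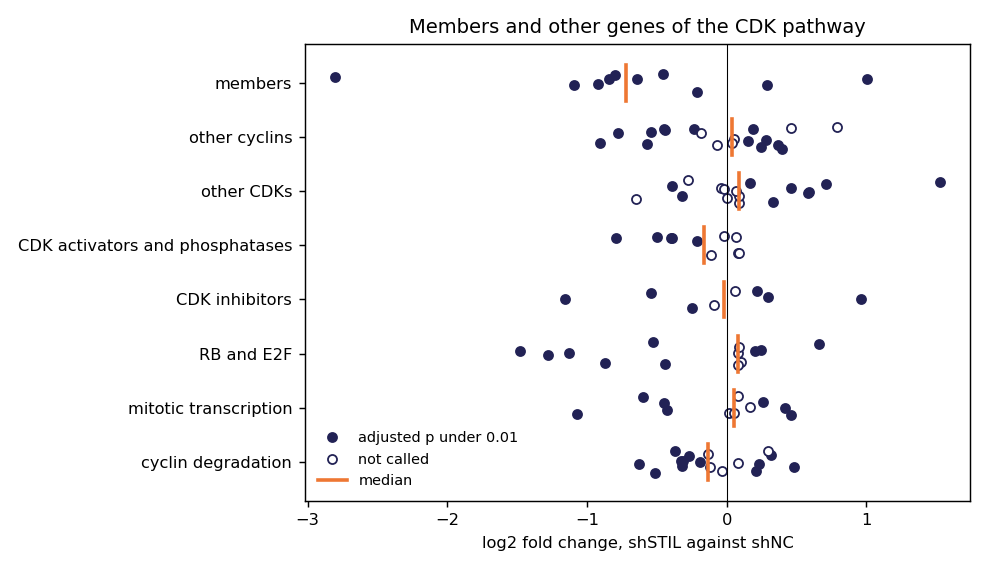
Log2 fold change of shSTIL against shNC (horizontal axis) for the 10 cyclin and CDK genes (top row) and for the genes of 7 lists of the CDK network, with filled points for an adjusted p under 0.01 and a bar at the median. The top row has its median at -0.72, and the medians of the 7 lists lie between -0.16 and 0.09 with called genes on both sides of 0 in each list but the activators and phosphatases.

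Upstream of the cyclin genes, 6 of 13 RB and E2F genes were lower, 3 were higher and 4 were not called, with a median of 0.08, beside 23.6% lower and 23.5% higher over all genes. E2F2, an activator E2F, went from a mean log2 CPM of 4.61 to 3.13 (log2 fold change -1.48, SE 0.106, adjusted p = 5.9e-08, limma), and E2F8, an atypical E2F that represses transcription, from 5.01 to 3.73 (-1.28, SE 0.070, adjusted p = 4.2e-09, limma). Of 11 genes of mitotic transcription (FOXM1, the MYB-like, MuvB and NF-Y factors), 4 were lower and 3 were higher, with a median of 0.05. MYBL2, which joins MuvB to activate late cell cycle genes, fell from 8.55 to 7.48 (log2 fold change -1.07, SE 0.037, adjusted p = 6.4e-11, limma), and RBBP4, a MuvB subunit that is shared with other chromatin complexes, fell by 0.60 on the log2 scale (SE 0.031). The higher genes of this list numbered 1 without shNC replicate 1 or without shSTIL replicate 2 or 3. Of 17 genes of cyclin degradation, 8 were lower and 4 were higher, beside 23.6% and 23.5% of all genes, with a median of -0.13. CDC20, the activator of the anaphase-promoting complex that targets cyclin B1, changed by -0.63 (SE 0.037), and FBXO5, an inhibitor of that complex, by -0.51 (SE 0.047). In this list the lower genes numbered 5 without any 1 of the shSTIL libraries, and the higher genes 2 without shNC replicate 1 or 3.

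The direction and the call of all 10 cyclin and CDK genes were the same in each of 14 other fits, which changed the normalization, the filter, the prior count or the test, added a replicate block or left out 1 library. Across them the estimates ran from -2.92 to -2.77 for CCNE2, from -1.13 to -1.05 for CCNE1, from -0.50 to -0.43 for CDK1, from -0.22 to -0.19 for CDK4, from 0.28 to 0.33 for CCND1 and from 0.97 to 1.03 for CDK6. The largest adjusted p among them was 0.0046, for CDK4.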

How the data were processed

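Total RNA of 3 shNC and 3 shSTIL libraries of EJ cells was sequenced on BGISEQ-500. The authors filtered reads with SOAPnuke, mapped them with Bowtie2, estimated reads per gene with RSEM and scaled them with edgeR. The submitters' processing notes name hg38, Bowtie2, RSEM and limma, and their versions are not given in the sources used here. The deposited tables hold log2 CPM of 15953 genes for all 6 libraries (prior count 2) and estimated counts of 15957 genes for 4. RSEM divides reads between similar transcripts, so paralogs can share error.

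The main test was limma 3.58.1 in R 4.3.3 (lmFit, eBayes with a trend) fitted to every gene's deposited log2 CPM, with Benjamini-Hochberg adjustment and a threshold of 0.01, and no replicate block. Reads were recovered by inverting the log2 CPM, where 87.1% to 87.4% of values came out whole within 0.005, and were rounded for edgeR 4.0.16 (quasi-likelihood) and DESeq2 1.42.0, run as alternatives. They differed from the deposited estimated counts by at most 0.000294 reads. The remaining alternatives were quantile normalization, median centring, a filter on low genes (mean log2 CPM 1 or more), a prior count of 0.5, no trend, a replicate block and leaving out each library. For ratios and shares, the 20 labellings of the libraries were enumerated in a two-sided exact permutation test. RPKM used the effective library sizes and transcript lengths of GENCODE 29. Promoter windows came from RefSeq. The fits were also run on simulated data in which far fewer genes were changed than were called here, and no result rests on that run.

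The genes, the 7 network lists and the 2 marker lists were chosen with earlier results of these data known. Named are the 10 genes, STIL, the marker genes, from each network list the 2 called genes of largest change whose mean log2 CPM reached 1, and CDC25, WEE1, PKMYT1, CKS1B, CKS2, CDKN1A, CDKN1B, CCND2, CCND3 and CCNF by role.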

Additional observations from a re-analysis of the deposited data

How the results depend on the processing

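The number of DEGs was 7509 in the main analysis and 4900 to 5638 with 1 library left out, lowest without shSTIL replicate 3, where fewer libraries were fitted. It was 7337 after quantile normalization, 7549 after centring on the median, 7448 among genes whose mean log2 CPM reached 1, 7129 with a prior count of 0.5, 5855 with no mean-variance trend, 7831 with edgeR and 6780 with DESeq2. All 10 cyclin and CDK genes were called in each of these. The other scalings moved the median of all genes to 0.018 (quantile normalization) or -0.0036 (median centring), against 0.0052. With a replicate block 6898 DEGs were called, and the block ended no call of the 10 genes. Libraries of the same number did not deviate together (correlations of -0.12, -0.06 and -0.11 over 11319 genes), and the numbers were not taken as pairs. No fold change of the 10 genes, STIL or the named list genes reversed under the alternatives, which were not run for the marker genes. The changes of the 12 ratios, recomputed with a prior count of 0.5 and with each library left out, kept their direction. Depth limits the precision of CCNE2, with 23 to 25 reads per shSTIL library, and of CCND2, with at most 5.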
